A study of Homo sapiens with 6 samples.

Results

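The apolipoprotein L (APOL) genes APOL1, APOL2, APOL3 and APOL6 were compared between wild-type HCT116 cells, a human colon carcinoma line, and an isogenic HCT116 derivative in which BRCA2 had been inactivated. These 4 genes, of 13139 genes with a named probe set, were selected on the deposited array values of APOL6, which were higher in the knockout, so for them the difference between genotypes is given as a description without a test. Each of the 4 was represented by a single probe set that carried no other gene symbol. No filter on low values was applied, so all 4 entered the fit. The remaining relatives with a probe set, APOL4, APOL5 and the more distant APOLD1, were described beside them.

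Each genotype was represented by 3 arrays, which the sample titles call technical replicates, while the extraction protocol speaks of 3 frozen samples per genotype. Whether these came from separate cultures is not stated, so the spread between arrays may be technical. The wild-type line came from ATCC, and in the knockout both BRCA2 alleles had been disrupted in turn by gene targeting. Neither line had been given a drug, cytokine or other agent, as far as the labels say, and both grew in serum-supplemented McCoy's 5A. Only 1 line stands for each genotype, so effects of the BRCA2 loss cannot be told apart from those of other changes between the lines, and the errors below measure the spread between arrays. BRCA2 itself was not analysed here. All values are on a log2 scale, on which a difference of 1 is a doubling of signal. Probe sets differ in how brightly they report, so levels are compared within a gene. The exception is a rough placement of signals against the array's median or against all probe sets, which carries this limit.

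The apolipoprotein L genes form a cluster on the long arm of chromosome 22 that expanded in primates. APOL1 encodes a secreted protein that circulates on a subclass of high-density lipoprotein and lyses African trypanosomes, whereas the products of the other family members lack a signal for secretion and stay inside the cell. Several of these genes are induced by interferon gamma and by tumour necrosis factor, and family members have been linked to ion channels in membranes, to vesicle traffic and to cell death.

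The arrays differed in their overall signal. Their median log2 values ran from 7.36 to 7.80, and wild-type array 1 (7.71) and knockout array 2 (7.80) had the highest medians. The median difference over all 19458 probe sets was 0.02. Over all probe sets, these 2 arrays of different genotype correlated at 0.924. The knockout arrays correlated with each other at 0.876 to 0.902 and the wild-type arrays at 0.896 to 0.925. The cause was not tested. Of 15 markers of colon epithelium, 8 were above the array's median on all 6 arrays, where 5019 of all 13139 genes were. Among the 8 were the adhesion gene EPCAM (wild type 9.88 ± 0.36, knockout 10.12 ± 0.32, SD, n = 3 arrays) and the keratin gene KRT8 (12.35 ± 0.42 and 13.01 ± 0.09). The rest of the 8 were CDH1, KRT18, KRT19, CLDN3, CLDN4 and CLDN7. KRT20 (5.93 ± 0.20 and 5.95 ± 0.68) and CDH17 (4.44 ± 0.72 and 5.06 ± 0.85), which mark differentiated intestine, were not among the 8. Neither were the remaining listed genes, CDX1, CDX2, VIL1, GPA33 and LGALS4. None of the 12 endothelial and none of the 6 liver markers, and 1 of the 9 leukocyte markers, lay above the median on all arrays, whereas 3 of the 6 podocyte markers did.

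APOL6 was the member that differed most. It encodes an intracellular protein with a region that resembles the BH3 motif of cell death regulators. The wild-type arrays, in the order of their numbers, gave 5.35, 4.94 and 5.10, and the knockout arrays gave 6.85, 7.23 and 7.75. All knockout arrays were above all wild-type arrays, and the lowest knockout value exceeded the highest wild-type value by 1.50. The wild-type mean was 5.13 ± 0.21 and the knockout mean 7.27 ± 0.45 (SD, n = 3), a difference of 2.15 ± 0.31 (SE of the moderated fit), or 4.43-fold. Whether more cells carried the transcript or each cell carried more of it cannot be told apart in RNA from whole cultures.

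APOL6 was the only one of the 4 members past an adjusted p of 0.05 in the fit over all probe sets, in which 0.570% of all probe sets passed in either direction and 0.416% passed as higher. It was also the only one whose arrays did not overlap between genotypes, where 19.7% of all probe sets did not in either direction. Because APOL6 was chosen for this difference, nothing is read from these counts. Among the 81 probe sets that passed as higher, 61 had a larger difference than APOL6, and the median difference of the 81 was 2.68. The call was lost with any 1 array left out, though the difference then stayed between 1.91 and 2.36. The difference was 1.88 between the arrays of highest median, knockout array 2 and wild-type array 1, and 2.28 among the other 4 arrays.

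**Figure D1:**
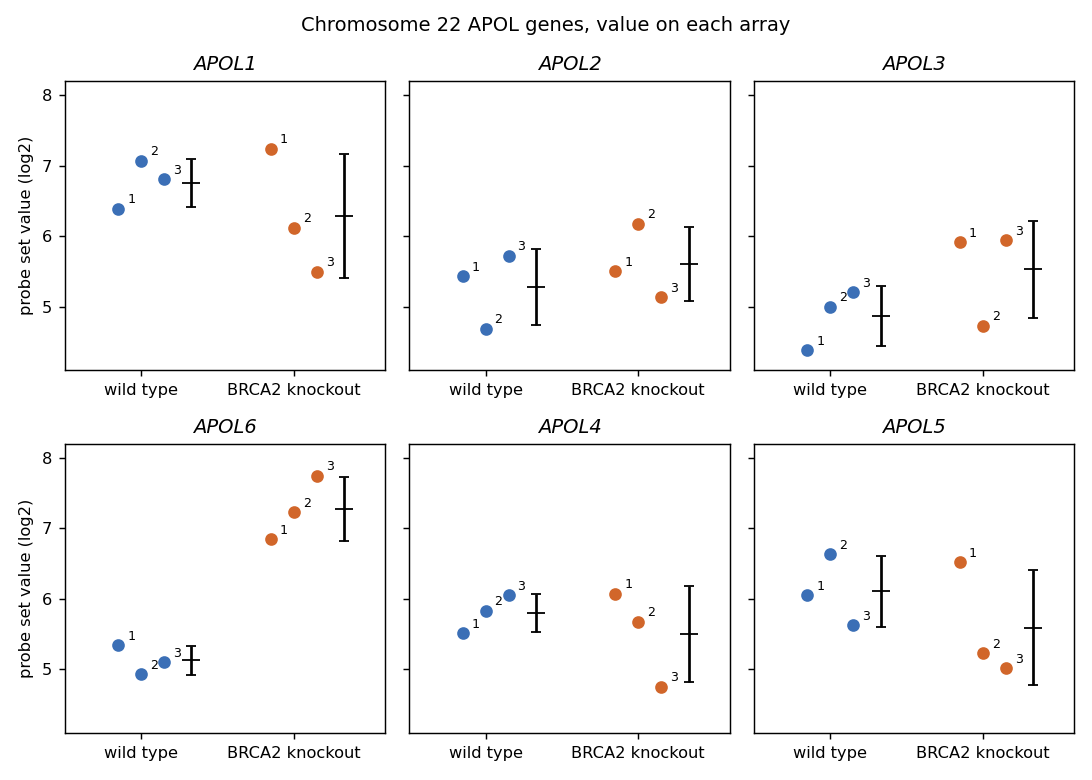
Value of each chromosome 22 APOL gene on each array (log2, vertical axis) in wild type (blue) and BRCA2 knockout (orange), with the array number beside each point and the mean with its SD as a black bar (n = 3 arrays). The genotypes are apart for APOL6, with a gap of 1.50, and overlap for the other 5 genes.

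APOL3 was the next member by size. It encodes an intracellular apolipoprotein L that is induced by interferon gamma and can disrupt bacterial membranes. Its values were 4.39, 5.00 and 5.20 in wild type and 5.91, 4.73 and 5.94 in knockout. Knockout arrays 1 and 3 were above all wild-type arrays, but knockout array 2 fell between wild-type arrays 1 and 2, so that the genotypes overlapped. The difference was 0.67 ± 0.42 (95% interval of the fit -0.32 to 1.65). It was 1.06 when knockout array 2 was left out, 0.43 when wild-type array 1 was, and 0.83 when both were.

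APOL2, an intracellular member found at the endoplasmic reticulum, had values of 5.43, 4.69 and 5.72 in wild type and 5.51, 6.18 and 5.13 in knockout. Its highest value was on knockout array 2 and its lowest on wild-type array 2, and the remaining values of both genotypes were interleaved. The difference was 0.33 ± 0.40 (95% interval -0.61 to 1.26). Leaving out array 2 of the wild type or of the knockout brought it to 0.03 or 0.04, and leaving out array 3 of either brought it to 0.55 or 0.56. With arrays weighted by their quality its sign turned, to -0.16.

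APOL1, the secreted trypanosome lytic factor, had values of 6.39, 7.07 and 6.81 in wild type and 7.24, 6.12 and 5.50 in knockout. The knockout arrays held both the highest and the lowest of the 6 values, with a range of 1.74 against 0.68 in wild type. The difference was -0.47 ± 0.47 (95% interval -1.58 to 0.64). It was -0.95 without knockout array 1 and -0.07 without knockout array 3.

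The family members outside these 4 had no higher mean in the knockout. APOL5 was at 6.06, 6.63 and 5.63 in wild type and 6.52, 5.23 and 5.01 in knockout, a difference of -0.52 ± 0.47. APOL4 was at 5.51, 5.83 and 6.05 in wild type and 6.08, 5.68 and 4.76 in knockout, a difference of -0.29 ± 0.39. For both genes the genotypes overlapped, and the lowest of the 6 values was on knockout array 3. APOLD1, a gene on chromosome 12 known for its expression in activated endothelium, differed by -0.12 ± 0.71, with values from 4.59 to 6.80 in wild type and from 4.86 to 6.79 in knockout.

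The knockout arrays did not order the family members alike. APOL1, APOL4 and APOL5 were highest on knockout array 1 and lowest on knockout array 3 within that genotype, an order found for 8.53% of all probe sets. APOL6 had the opposite order, highest on array 3 and lowest on array 1, as did 14.9% of all probe sets. APOL3 was highest on array 3 and lowest on array 2 (13.3%), and APOL2 was highest on array 2 and lowest on array 3 (24.5%). The spread within a genotype was smaller for APOL6 than for its relatives on chromosome 22. APOL6 was chosen for its rise in these values, which can favour a small spread, so nothing is read from this order. The SD pooled over both genotypes was 0.35 for APOL6, 0.53 for APOL2, 0.57 for APOL3 and 0.67 for APOL1, against a median of 0.46 over all probe sets. APOL1 through APOL4 are close in sequence, and whether their probe sets report each other's transcripts was not tested.

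Several genes had values close to the pattern of APOL6, and its relatives lay farther from it. Likeness was measured as the Euclidean distance between values over 6 arrays, after the wild-type mean of each gene had been subtracted. The nearest of the other 13138 genes was TSPAN1, which encodes a tetraspanin of epithelial membranes, at a distance of 0.42 on the log2 scale. It had values of 7.84, 7.68 and 7.93 in wild type and 9.66, 9.99 and 10.14 in knockout. After it came SYBU, which encodes syntabulin, a linker of cargo to kinesin (0.47), CABLES1, an adaptor of cyclin-dependent kinases (0.49), DHRS2, a short-chain dehydrogenase (0.53), GALNT3, an enzyme that starts mucin-type glycosylation (0.58), and EMP1, which encodes an epithelial membrane protein (0.64). These genes were picked for a pattern that includes the difference between genotypes, so their own differences, which ran from 2.02 for DHRS2 to 2.28 for EMP1, are a description. APOL3 was the nearest family member, at a distance of 2.92 and rank 1967, followed by APOL2 at 3.42 and rank 4477. APOL4 (4.56), APOLD1 (4.72), APOL1 (4.96) and APOL5 (5.01) were farther away. The distance includes the genotype difference for which APOL6 was chosen. A relative with a smaller difference is therefore far from it by construction, and nothing is read from these distances and ranks.

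**Figure D2:**
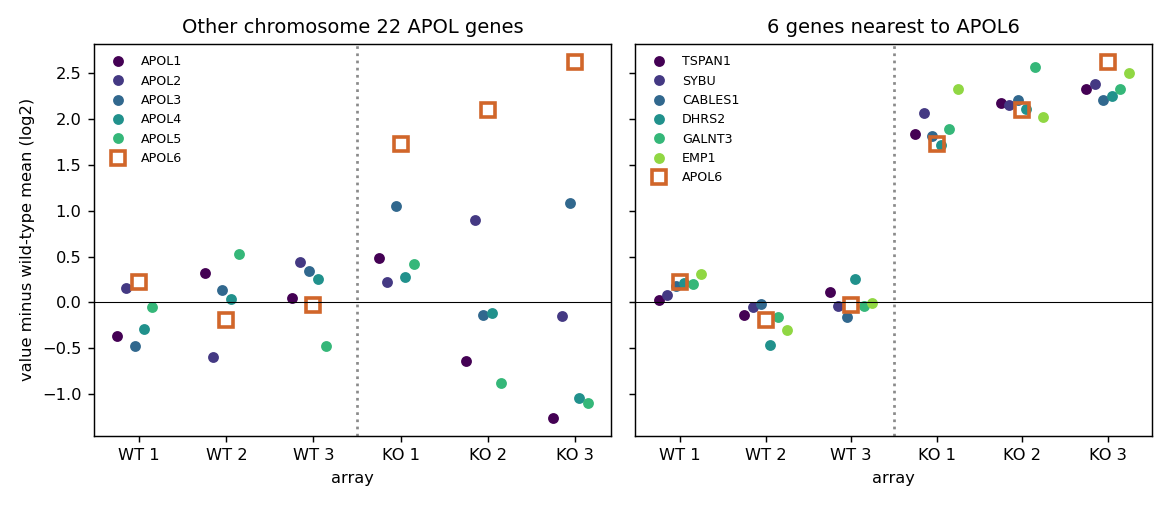
Value on each array minus the gene's wild-type mean (log2, vertical axis) for the 3 wild-type (WT) and 3 knockout (KO) arrays, with APOL6 as open orange squares, the other chromosome 22 APOL genes on the left and the 6 genes nearest to APOL6 on the right. On the left, APOL6 stands above its relatives on each knockout array; on the right, the points lie close together, with distances from 0.42 to 0.64 over the 6 arrays.

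The position of APOL6 in the cluster was examined next. In the order of genes on chromosome 22, APOL6 comes first, followed by APOL5, RBFOX2, APOL3, APOL4, APOL2 and APOL1, with MB as the nearest measured gene on the APOL6 side and MYH9 on the APOL1 side. MB, which encodes the oxygen-binding protein myoglobin, was also higher in the knockout. Its values were 5.65, 5.08 and 5.60 in wild type and 7.18, 7.28 and 7.31 in knockout, without overlap. It rose by 1.82 ± 0.27 (limma, Benjamini-Hochberg adjusted p = 0.0459), from 5.44 ± 0.32 to 7.26 ± 0.07. That call was lost in each of the 6 fits that left out 1 array, in which the difference ran from 1.64 to 1.92.

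The genes on the other side of APOL6 and beyond the cluster gave values nearer to 0. RBFOX2, a splicing regulator that lies within the cluster, differed by 0.28 ± 0.24 (adjusted p = 0.685), although its 3 knockout values, from 10.55 to 10.65, were above its wild-type values, from 10.20 to 10.52. MYH9, the heavy chain of non-muscle myosin, differed by -0.21 ± 0.32 (adjusted p = 0.827) with overlapping arrays.

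Over 25 measured neighbours, 12 before the cluster, 12 after it and RBFOX2 within it, 15 had a positive and 10 a negative difference, with a median of 0.12. MB and TIMP3 passed as higher and no other neighbour passed, where 0.570% of all probe sets did in either direction. TIMP3, a secreted inhibitor of metalloproteases that lies farther from the cluster than MB, rose by 3.27 ± 0.36 (limma, adjusted p = 0.0168), from 4.70 ± 0.60 to 7.97 ± 0.20. Between TIMP3 and MB lie 5 measured genes, HMGXB4, TOM1, HMOX1, MCM5 and RASD2, whose differences ran from -0.71 for TOM1, an endosomal sorting protein, to 0.28 for RASD2, a small GTPase. With the genotypes compared array by array, 7 of the 25 neighbours had knockout values above all wild-type values and 2 had them below. Thus 36.0% did not overlap, where 21.2% of all genes did not. Over all 287 measured genes of chromosome 22, 68.3% were higher in the knockout and 31.7% did not overlap, with a median difference of 0.27. Over all 13139 genes, 54.7% were higher, with a median of 0.07. Of the 25 neighbours, 1 was called without wild-type array 1, namely TIMP3, and 0 were called with any other single array left out or without both arrays of highest median.

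**Figure D3:**
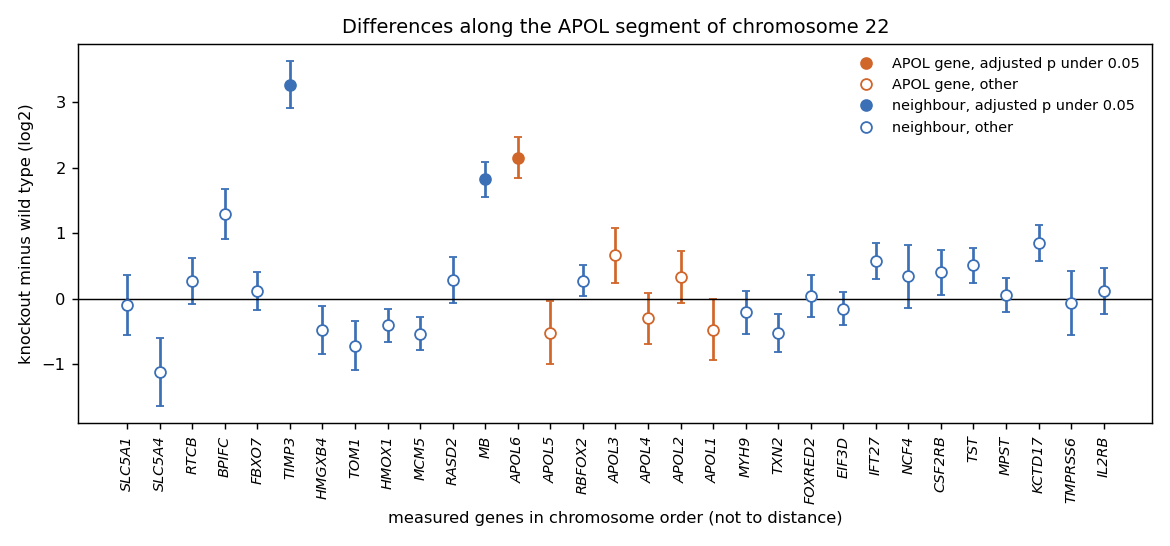
Difference of knockout minus wild type (log2, vertical axis, bars show SE, n = 3 arrays per genotype) for APOL genes (orange) and their 25 measured neighbours (blue) in chromosome order, with filled points at an adjusted p under 0.05. MB and APOL6, side by side, stand at 1.82 and 2.15, and the genes from APOL5 to MYH9 lie between -0.52 and 0.67.

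Because interferons induce APOL genes, the receptors and transducers of interferon signals were described next, from a list of 18 genes of which 15 had a single-symbol probe set. None of them passed in the limma fit, in which 0.570% of all probe sets did. At an unadjusted p under 0.05, 3 were higher and 1 was lower, where 1089 and 689 of all 13139 genes were, and the median difference was 0.32. For 40.0% of the 15 the arrays did not overlap, 4 with the knockout above and 2 with it below, where 21.2% of all genes did not. IRF1, a transcription factor that carries interferon gamma responses, was at 8.23, 7.89 and 8.07 in wild type and 9.06, 9.51 and 9.36 in knockout. Its arrays did not overlap, and the difference was 1.25 ± 0.26 (adjusted p = 0.125). IRF9, the DNA-binding subunit of the complex that mediates type I interferon responses, differed by 0.94 ± 0.28 (adjusted p = 0.240), also without overlap. JAK2, a kinase of the interferon gamma receptor, had the largest difference of the list, -1.64 ± 0.45 (adjusted p = 0.219). The receptor genes IFNGR1 and IFNGR2 differed by 0.32 ± 0.37 and -0.16 ± 0.27.

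Of 25 listed genes known to respond to interferon gamma, a cytokine that induces APOL genes, 19 were measured. The 6 without a single-symbol probe set were GBP1, GBP2, CXCL9, CXCL11, PSMB9 and PSME2, so the values below do not cover them. Among the 19 measured members 12 were higher and 7 lower, with a median difference of 0.12. Thus 63.2% were higher, where 54.7% of all genes were. In limma 0 passed, a count near the 0.570% of all probe sets that did. At an unadjusted p under 0.05, 0 were higher and 1 was lower, where 1089 and 689 of all 13139 genes were. The arrays did not overlap for 15.8% of the 19 members, where 21.2% of all genes did not. The guanylate-binding protein genes GBP3, GBP4 and GBP5 differed by -0.14 ± 0.42, 0.67 ± 0.58 and 0.06 ± 0.45, the chemokine gene CXCL10 by 0.12 ± 0.42 and the class II transactivator gene CIITA by 0.11 ± 0.44. The largest difference was in CD274, which encodes the checkpoint ligand PD-L1, at -1.56 ± 0.83 (adjusted p = 0.507).

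Among genes of the type I interferon response, IFI44 and IFIT2 were called, 2 of 35 where 63 of all 13139 genes were called as higher and 23 as lower. Of the 35 measured members, 26 were higher, or 74.3% where 54.7% of all genes were, and the median difference was 0.58. At an unadjusted p under 0.05 of the limma fit, 13 were higher and 0 lower, where 1089 and 689 of all 13139 genes were. Knockout values were above all wild-type values for 14 and below for 0, so 40.0% did not overlap, where 21.2% of all genes did not. IFIT2, an inhibitor of translation of viral RNA, had values of 5.71, 5.57 and 5.40 in wild type and 7.44, 7.15 and 7.45 in knockout, a rise of 1.79 ± 0.25 (adjusted p = 0.0387). IFI44 rose by 3.24 ± 0.48 (adjusted p = 0.0459) from values near the bottom of the scale, 1.77, 1.65 and 2.09, and with values under 4 set to 4 its difference was 1.07 (adjusted p = 0.380). The number called was 1 without knockout array 2, and 0 with any other single array left out or without both arrays of highest median. The title of the series names interferon-related genes, so this list is not independent of the study.

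Lists tied to what APOL proteins do in the cell were described in the same way. None of their members was called, which is near the share of 0.570% over all probe sets. Among lipoprotein apolipoproteins and their partners, 8 of 15 were higher and 7 lower (median 0.17), with the lipid exporter gene ABCA1 at -1.30 ± 0.58 (adjusted p = 0.433) and APOA1, the main protein of high-density lipoprotein, at 0.44 ± 0.37. Among 12 genes of Golgi phosphoinositide metabolism and reported APOL partners, 3 were higher and 9 lower (median -0.12). The lipid kinase gene PI4KB differed by -0.14 ± 0.37, the calcium sensor gene NCS1 by 0.18 ± 0.27, and the sorting nexin gene SNX1 had the largest difference, -0.68 ± 0.44 (adjusted p = 0.580). Of 14 autophagy genes, 7 had a positive and 7 a negative difference (median -0.10), with GABARAPL2, a protein of the autophagosome membrane, at -0.95 ± 0.28 (adjusted p = 0.238).

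**Figure D4:**
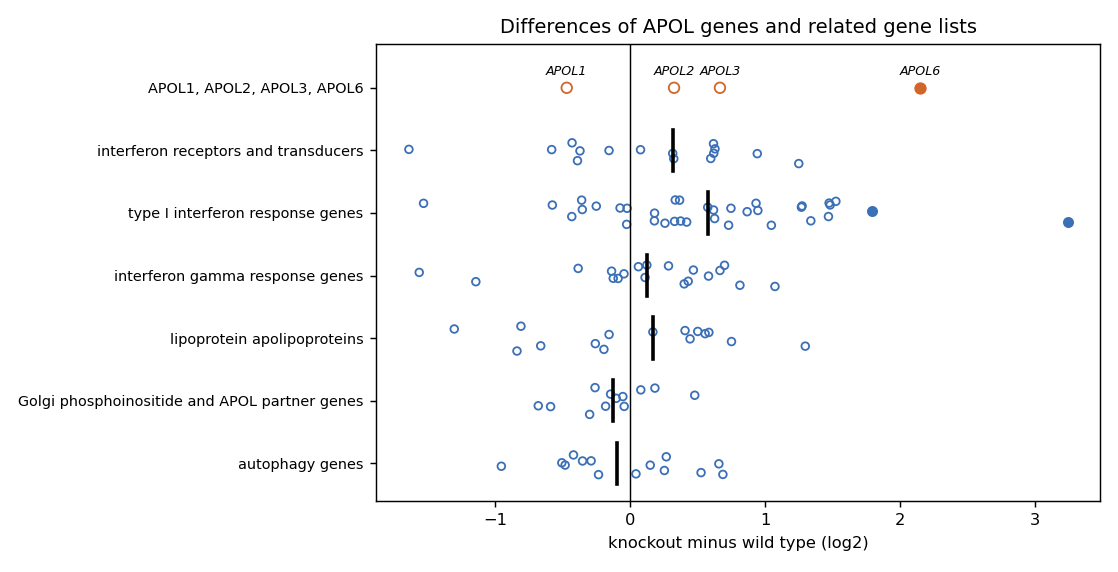
Difference of knockout minus wild type (log2, horizontal axis) for the 4 APOL genes (orange) and the members of 6 gene lists (blue), with filled points at an adjusted p under 0.05 and black bars at list medians. The filled points of the type I interferon list are IFIT2 (1.79) and IFI44 (3.24, or 1.07 and not called with values under 4 set to 4), APOL6 stands at 2.15, and APOL1, APOL2 and APOL3 lie between -0.47 and 0.67.

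Markers were described for cell types in which APOL genes are well known, namely endothelium, podocytes, leukocytes and liver. None was called, again near the 0.570% of all probe sets. Endothelial markers were higher in 5 of 12 cases (median -0.09), with the receptor gene TEK at 1.54 ± 0.85 (adjusted p = 0.522). Podocyte markers were higher in 3 of 6 cases (median 0.09), with PODXL at 0.86 ± 0.32 (adjusted p = 0.349). Leukocyte markers were higher in 7 of 9 cases (median 0.42), and LYZ differed by -0.82 ± 0.50. Liver markers were higher in 3 of 6 cases (median -0.08), with FGB at -1.33 ± 0.52 (adjusted p = 0.368). The mean over the leukocyte markers in this cultured carcinoma line was 6.01, 6.38 and 6.58 in wild type and 6.65, 6.10 and 6.76 in knockout. Knockout array 2 was thus below wild-type arrays 2 and 3, and any relation of these markers to the difference of APOL6 was not tested. Colon epithelium markers were higher in 14 of 15 cases, where 54.7% of all genes were, with a median of 0.37 and none called. For 40.0% of them the arrays did not overlap, 6 with the knockout above and 0 with it below, where 21.2% of all genes did not, and the largest difference was in the cadherin gene CDH1 (1.15 ± 0.24, adjusted p = 0.127). The mean over these markers was 8.42, 8.69 and 8.42 in wild type and 8.90, 8.62 and 9.03 in knockout, with knockout array 2 below wild-type array 2, and its part in the difference of APOL6 was not tested.

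**Figure D5:**
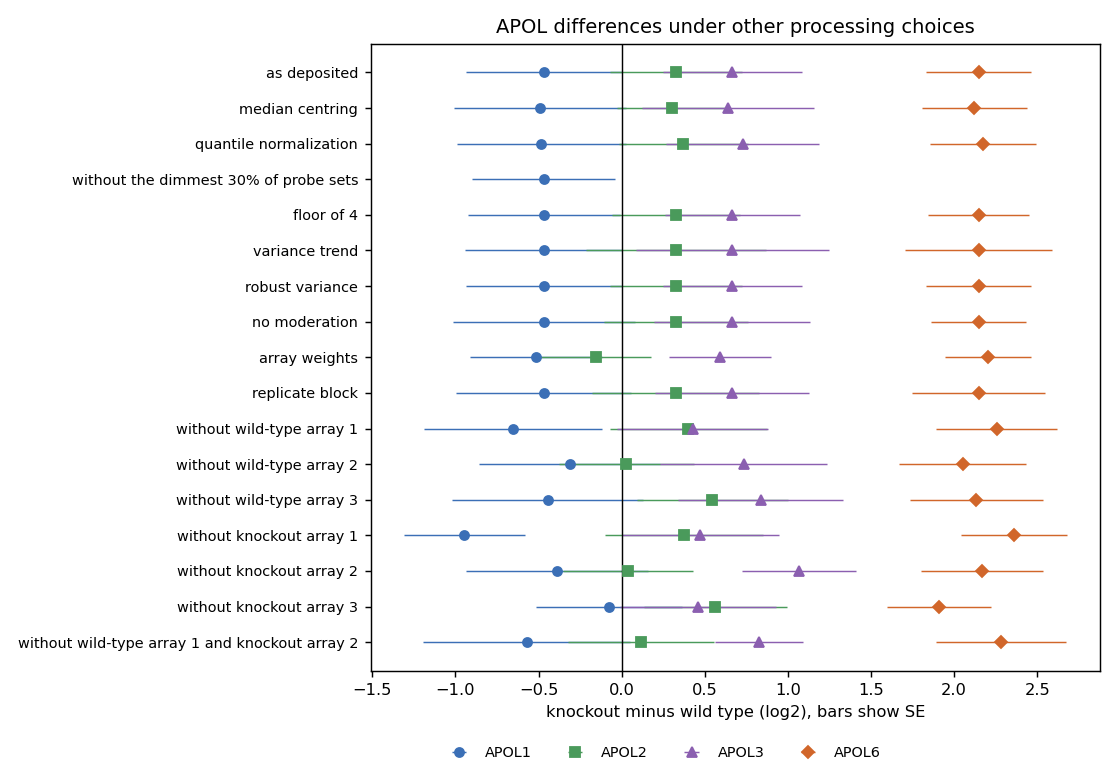
Difference of knockout minus wild type (log2, horizontal axis, bars show SE) for APOL1, APOL2, APOL3 and APOL6 with the values as deposited and under each alternative (vertical axis). APOL6 stays between 1.91 and 2.36 where it was fitted, APOL2 crosses 0 with array weights (-0.16), and only APOL1 is plotted without the dimmest 30% of probe sets because the other 3 genes are among those left out.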

How the data were processed

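Total RNA of 6 HCT116 samples was depleted of ribosomal RNA and hybridised to Affymetrix whole-transcript arrays, per the labels' protocols. The authors deposited 1 log2 value per probe set and array. RMA, R 2.11.1 and hg18 are listed in the submitters' processing notes. The RMA steps and any filter are not given in the sources used here. Array medians differ, so the deposited values do not share a common distribution across arrays. Whether a quantile step was used earlier is not stated. Genes were named from probe sets with exactly 1 symbol (13301 of 19458), with symbols updated through a GRCh38.p14 RefSeq table, used only for names and gene order. Where a gene had several probe sets, that of highest mean was taken.

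Values were fitted as deposited, without a filter, in limma 3.58.1 (R 4.3.3, lmFit and eBayes) with genotype as single factor and no block. P-values were Benjamini-Hochberg adjusted over all probe sets, and a call needed an adjusted p under 0.05. Intervals are 95% intervals of that fit, and the number of arrays limits precision. The code was tested on simulated data. The members, lists and tests were chosen with earlier results of these data known. Named were the APOL genes, up to 6 called members of each list or otherwise that of largest difference, the nearest and any called neighbour among 12 on each side, and the 6 genes nearest to APOL6. Further list genes, markers and neighbours were named after their values were seen. The alternatives tried were a floor of 4, quantile normalization, median centring, no moderation, array weights, a trended or robust variance, a replicate block, omission of the dimmest 30% of probe sets, and omission of arrays. Counts of called type I interferon genes and neighbours under these were added after seeing the data. Promoters of the members were not analysed here.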

Additional observations from a re-analysis of the deposited data

How the results depend on the processing

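APOL6 was higher in the knockout under all 15 alternatives that could be run for it. It stayed past the threshold in 6 of them, a count from which nothing is read because APOL6 was chosen for this difference. It no longer passed without moderation (2.15), without wild-type array 1 and knockout array 2 (2.28), or with any 1 array left out (1.91 to 2.36). Over all probe sets, where 111 were called, the count was 86 without moderation and 111 with robust variance. It was 175 with median centring, 174 with quantile normalization, 184 without the dimmest 30%, 169 with a floor of 4, 396 with a variance trend and 778 with array weights. It was 24 to 63 with 1 array left out and 7 without both arrays of highest median. APOL1 was lower under all 16 alternatives, and APOL3 higher under all 15, neither past the threshold. Under leave-one-out APOL1 ran from -0.95 to -0.07, APOL2 from 0.03 to 0.56 and APOL3 from 0.43 to 1.06. APOL2 reversed with array weights (-0.16). Without the dimmest 30%, APOL2, APOL3 and APOL6 were not among the probe sets fitted. No member had a second probe set to try. The cause of these changes was not tested.

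With the replicate number as a block, 3 probe sets were called and APOL6 (2.15) was not. Correlations over probe sets showed no pairing of arrays by number, though with 3 arrays per genotype they cannot exclude one. Same-numbered arrays deviated from their group means with correlations of -0.24, -0.43 and 0.06. Of 6 arrays, 1 correlated best with its own number. The largest correlation, 0.49, was between wild-type array 1 and knockout array 2.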
